A study of Homo sapiens with 6 samples.

Results

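The genes described here encode machinery that makes and processes RNA, in the nucleus for the most part and in mitochondria for POLRMT. They encode subunits of the RNA polymerases, general transcription factors, Mediator, Integrator, splicing factors, cleavage and polyadenylation factors, the RNA exosome and DEAD-box helicases. They were chosen by name only, as entries whose symbol starts with 1 of 14 prefixes (POLR, MED or TAF with a digit, GTF, INTS, SNRP, SF3, PRPF, SRSF, U2AF, LSM, EXOSC, CPSF and DDX). The rule found 28 of the 1273 genes of the deposited table, under 11 of the prefixes, and no entry starting with TAF and a digit, SNRP or PRPF. The table holds as many genes as the authors' own differential expression test called on the same libraries, so every gene below was already selected for a difference between the groups, and genes of these complexes outside it were not analysed here.

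RNA was sequenced from Rh30, an established human line of alveolar rhabdomyosarcoma, a cancer that resembles immature muscle. The 3 PANX1 libraries came from stable cells carrying pannexin 1, a membrane channel protein, under a cumate-inducible promoter, and the 3 GFP libraries from cells with the control vector of the same system. Both groups also carried the CymR repressor, expressed GFP constitutively, were kept in geneticin and puromycin, and received 30 µg/mL cumate for 48 h. The study's methods call the libraries of a group biological replicates, and neither they nor the labels say whether these came from separately derived lines. Expression is given as FPKM, fragments scaled to transcript length and to the mapped fragments of the library, so that levels can be compared between genes. The study's methods list the total reads of each library and give the same RNA integrity number for all samples. FPKM carry no counts, so the number of fragments behind each gene's value is unknown here and no counting interval was given. In bulk RNA a change in the share of cells expressing a gene and a change per cell cannot be told apart.

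PANX1 had 37.8, 35.3 and 28.1 FPKM in GFP replicates 1, 2 and 3 and 124, 184 and 123 FPKM in PANX1 replicates 1, 2 and 3. All PANX1 libraries were thus above all GFP libraries, as their labels say. Of 13 rhabdomyosarcoma markers looked for, DES and MYH8 were in the table. DES, the muscle intermediate filament protein desmin, had 282 ± 69.8 FPKM (SD, n = 3) in GFP and 461 ± 98.2 FPKM (SD, n = 3) in PANX1 cells, with a limma adjusted p of 0.0885. MYH8, a perinatal myosin heavy chain, was below 1 FPKM in each library and lower in PANX1 cells, with 0.626 ± 0.248 FPKM (SD, n = 3) in GFP and 0.135 ± 0.116 FPKM (SD, n = 3) in PANX1 cells and a limma adjusted p of 0.0354. Without GFP replicate 2 or 3, or after a correction for GC content, limma called 0 genes of the table lower, so the call of MYH8 was lost.

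In the nucleus, RNA polymerase II starts transcription together with general transcription factors and with Mediator, which connects it to proteins bound at enhancers. Introns are removed by the spliceosome, in which U2AF and the U2 particle with its SF3A and SF3B subunits recognize the end of the intron. The CPSF complex then cuts and polyadenylates the transcript, Integrator cuts small nuclear RNAs and RNAs of paused polymerases, and the exosome degrades or trims RNA.

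Mean FPKM was higher with PANX1 for 23 of the 28 genes and lower for 5, beside 1108 and 165 of the 1273 genes of the table. The PANX1 values all lay above the GFP values in 22 genes (78.6%), against 82.0% of the whole table, and all below them in 5 (17.9%), against 11.9% of the table. DDX39A was the exception, with overlapping values. Log2 ratios of mean FPKM had a median of 1.04 and a range from -0.92 to 2.24, against a median of 1.23 over the table. A log2 ratio above 1 was found for 17 genes (60.7%), against 72.0% of the table, and below -1 for 0 genes, against 3.22%. In limma's test on log2(FPKM + 1) with Benjamini-Hochberg adjustment over the table, 6 of the 28 genes (21.4%) had an adjusted p under 0.05 and were higher, against 33.5% of the table. These were SF3B5, POLR2L, MED16, EXOSC5, CPSF1 and SF3A2. With limma 0 of the 28 genes were lower at that threshold, against 0.707% of the table, and at an unadjusted p under 0.05 there were 14 higher genes and 0 lower ones, against 58.4% and 3.38% of the table. As the table was selected on these libraries, the counts are no independent test. The p-values weigh each difference only against the spread between these cultures.

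PANX1 replicate 3 stood apart from the other PANX1 libraries in this gene group. Its value was the top one of its group for each of the 23 higher genes and the bottom one for each of the 5 lower genes, as it had the extreme value in 1239 of the 1273 genes of the table. The median log2 ratio to the GFP mean over the 28 genes was 0.65 in replicate 1, 0.43 in replicate 2 and 1.73 in replicate 3, beside 0.77, 0.61 and 1.87 for the table. A log2 ratio above 1 was reached by 5 of the 28 genes in replicate 1, by 0 in replicate 2 and by 23 in replicate 3, beside 305, 214 and 1096 of the 1273 genes of the table (24%, 16.8% and 86.1%). Without replicate 3 the median log2 ratio of means was 0.54, and limma called 21 genes higher (75.0%) and 5 lower (17.9%), beside 78.1% and 11.5% of the table. The 6 genes called with all libraries were among these 21, and of the higher genes DDX39A and DDX54 did not pass in that fit. The calls depended on the GFP libraries too, with 0 of the 28 genes called higher without GFP replicate 1 or 2, 1 without GFP replicate 3, 4 without PANX1 replicate 1 and 14 without PANX1 replicate 2. The same 5 fits called 0.628%, 1.10%, 4.01%, 23.6% and 56.2% of the table higher. Scaling the libraries by median-of-ratios size factors, which are taken from this mostly higher table, moved the median log2 ratio of the table from 1.23 to 0.043 and that of the 28 genes from 1.04 to -0.15. After it 11 of the 23 higher genes were still higher, beside 699 of the 1108 higher genes of the table, the 5 lower genes were lower, as were all 165 of the table, and limma called 0 genes in either direction, with 3 of the 28 higher and 7 lower at an unadjusted p under 0.05, beside 11.4% and 13.4% of the table, where it also called 0 genes.

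**Figure D1:**
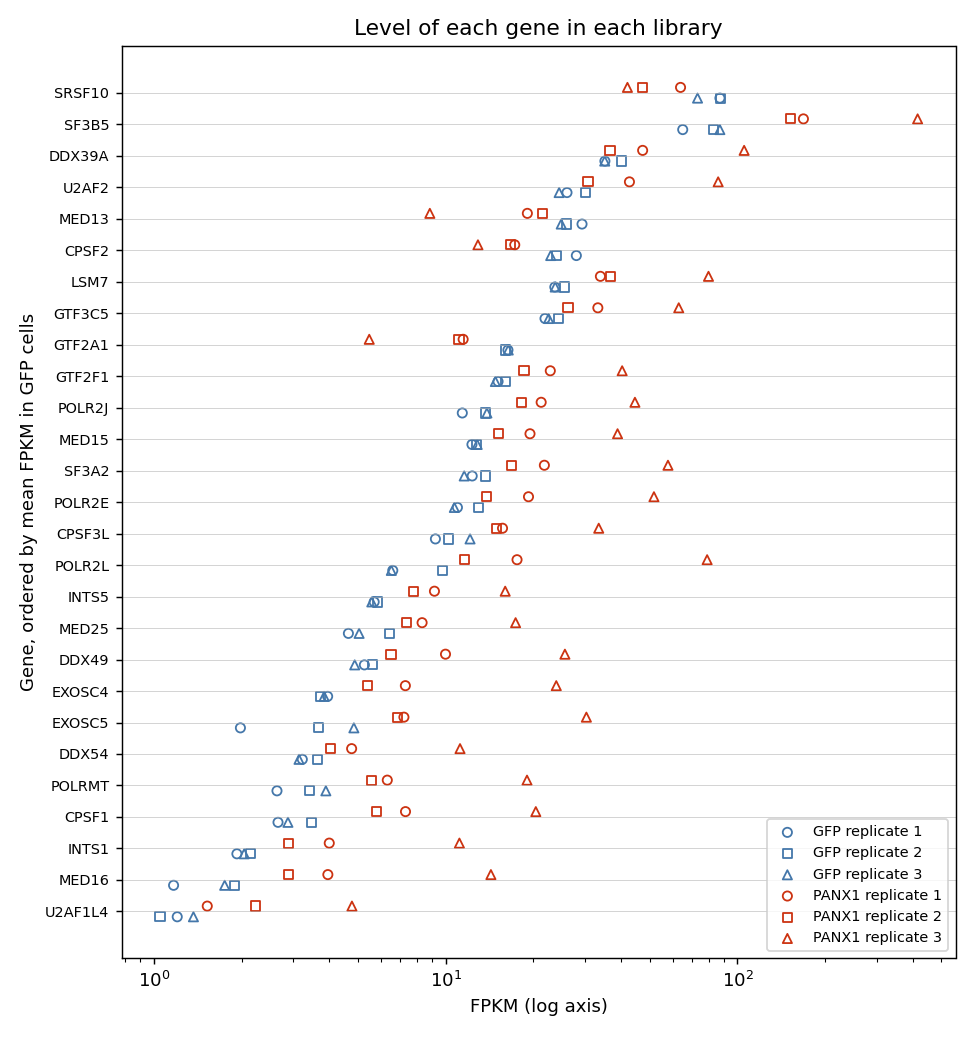
FPKM on a log axis of 27 of the 28 genes in each library, ordered by the mean FPKM of the GFP libraries (DDX3Y is not drawn). Blue symbols are GFP and red symbols PANX1 libraries, and circles, squares and triangles are replicates 1, 2 and 3. The red triangle of PANX1 replicate 3 is the rightmost symbol of each higher gene and the leftmost of SRSF10, MED13, CPSF2 and GTF2A1.

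In GFP cells the levels ran from 1.21 ± 0.159 FPKM (SD, n = 3) for U2AF1L4 to 82.6 ± 8.3 FPKM (SD, n = 3) for SRSF10, with a median over the 28 genes of 11 FPKM. SRSF10 and the next gene in that order, SF3B5 with 78.3 ± 11.7 FPKM (SD, n = 3), differed by less than their spread. In PANX1 cells SF3B5 had the highest level. The GFP libraries lay close together, with a median coefficient of variation of 9.69% over the 28 genes, and the PANX1 libraries farther apart, with 56.6%, beside 14.9% and 52.4% over the table.

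The 4 polymerase genes were all higher in PANX1 cells, but after median-of-ratios scaling only POLR2L and POLRMT were. POLR2L, on chromosome 11 of hg19 from 839721 to 842529, encodes a small subunit shared by the nuclear RNA polymerases. It had 6.59, 9.78 and 6.52 FPKM with GFP and 17.6, 11.6 and 78.7 FPKM in PANX1 replicates 1, 2 and 3. The groups did not overlap, and replicate 3 was far above the rest. The log2 ratio of means was 2.24, the largest of the 28 genes with all libraries. Without PANX1 replicate 3 it was 0.94, below CPSF1 (1.12), MED16 (1.09), SF3B5 (1.03) and EXOSC5 (1.01). Limma gave a change on log2(FPKM + 1) of 1.64 with a standard error of 0.469 and an adjusted p of 0.00821, and over the alternative settings its adjusted p ran from 0.00076 to 0.337. POLR2E, another shared subunit, had 11.6 ± 1.24 FPKM in GFP and 28.3 ± 20.5 FPKM in PANX1 cells (SD, n = 3), with an adjusted p of 0.0604 in limma, and POLR2J, a subunit of RNA polymerase II, had 13 ± 1.37 and 28 ± 14.4 FPKM (SD, n = 3), with an adjusted p of 0.0677. POLRMT does not belong to the nuclear enzymes, as it encodes the RNA polymerase of mitochondria. Its means were 3.32 ± 0.629 and 10.3 ± 7.55 FPKM (SD, n = 3), a log2 ratio of 1.63 (limma adjusted p = 0.0561). Its libraries had 2.64, 3.43 and 3.89 FPKM in GFP and 6.31, 5.56 and 19 FPKM in PANX1 cells, without overlap. Leaving out PANX1 replicate 3 moved the log2 ratio of POLRMT to 0.84, that of POLR2E from 1.29 to 0.52 and that of POLR2J from 1.11 to 0.60.

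Of the 3 general transcription factor genes, GTF2F1 and GTF3C5 were higher and GTF2A1 was lower, and none had an adjusted p under 0.05 with all libraries. After median-of-ratios scaling all 3 were lower. GTF2A1, on chromosome 14 from 81641796 to 81687575, encodes the large precursor of TFIIA, which steadies the TATA-binding protein on DNA. Its GFP libraries had 16.4, 16.0 and 16.4 FPKM and its PANX1 libraries 11.5, 11.1 and 5.48 FPKM. Every PANX1 value was below every GFP value, and replicate 3 was again the most distant. The log2 ratio was -0.80, and -0.52 without PANX1 replicate 3, with a limma adjusted p of 0.115 with all libraries and 0.0118 without that one (0.0118 to 0.985 over all alternatives). GTF3C5, a subunit of TFIIIC, which recruits RNA polymerase III to tRNA genes, had 21.9, 24.3 and 22.5 FPKM in GFP and 33.2, 26.3 and 62.9 FPKM in PANX1 cells. PANX1 replicate 2 lay just above the highest GFP value, and the limma adjusted p was 0.103, and 0.0454 without PANX1 replicate 3. GTF2F1, the large subunit of TFIIF, had a log2 ratio of 0.83, and 0.43 without PANX1 replicate 3. Its limma adjusted p was 0.117 and 0.029 in the same order.

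Of the 4 Mediator genes, MED15, MED16 and MED25, which belong to or bind the tail that contacts activators, were higher, and MED13, of the kinase module that holds Mediator away from the polymerase, was lower. After median-of-ratios scaling MED16 alone was higher. MED16 lies on chromosome 19 from 867962 to 893218. Its values were 1.17, 1.89 and 1.75 FPKM with GFP and 3.95, 2.90 and 14.3 FPKM with PANX1, with no overlap and with replicate 3 the highest. The log2 ratio was 2.14, and 1.09 without PANX1 replicate 3. Limma gave a change of 1.37 with a standard error of 0.462 and an adjusted p of 0.0234 (0.005 to 0.224 over the alternatives). MED13, on chromosome 17 from 60019966 to 60142643, had 29.3, 25.9 and 24.9 FPKM in GFP and 19.1, 21.5 and 8.83 FPKM in PANX1 cells. The groups did not overlap, GFP replicate 3 and PANX1 replicate 2 being the nearest values. Its log2 ratio was -0.70, and -0.40 without PANX1 replicate 3. The limma adjusted p was 0.104 and 0.0317 in the same order (0.0317 to 0.538 over the alternatives). MED15 and MED25 had log2 ratios of 0.96 and 1.03, with adjusted p-values of 0.0994 and 0.124 in limma. Without PANX1 replicate 3 these ratios were 0.46 and 0.54, with limma adjusted p-values of 0.0301 and 0.0317.

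The Integrator genes INTS1 and INTS5 were both higher, and so was CPSF3L, an older symbol of INTS11, which encodes the subunit that cuts RNA and thus belongs to Integrator in spite of its prefix. INTS1 alone was still higher after median-of-ratios scaling. INTS1, a scaffold of the complex on chromosome 7 from 1509913 to 1544018, had 1.93, 2.15 and 2.04 FPKM in GFP and 3.99, 2.89 and 11.2 FPKM in PANX1 cells. INTS5, another scaffold subunit, on chromosome 11 from 62414320 to 62420774, had 5.69, 5.86 and 5.59 FPKM in GFP and 9.16, 7.77 and 16.0 FPKM in PANX1 cells. CPSF3L had 9.23, 10.3 and 12.1 FPKM in GFP and 15.7, 14.9 and 33.5 FPKM in PANX1 cells. None of the 3 genes had overlapping groups, and replicate 3 was the highest in each. In that order they had log2 ratios of 1.56, 0.94 and 1.02, and limma adjusted p-values of 0.064, 0.142 and 0.0895, none past the threshold, while without PANX1 replicate 3 these were 0.0134, 0.0197 and 0.0156, at log2 ratios of 0.76, 0.57 and 0.54.

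**Figure D2:**
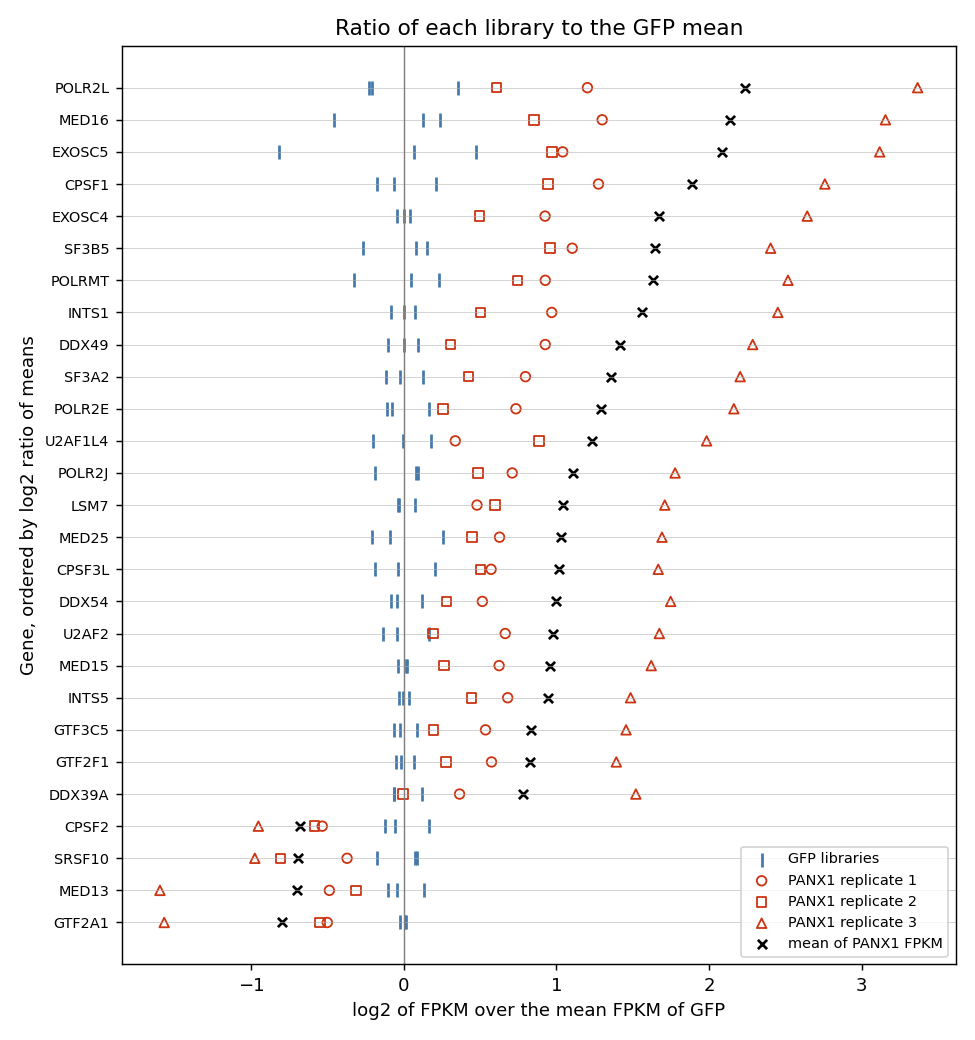
Log2 of the FPKM of each library over the mean FPKM of the GFP libraries, for 27 of the 28 genes (DDX3Y is not drawn), ordered by the log2 ratio of means. Blue bars are the GFP libraries, red circles, squares and triangles PANX1 replicates 1, 2 and 3, and black crosses the mean PANX1 FPKM. The triangles lie farthest from 0 in each gene, and PANX1 replicate 2 lies between GFP values in DDX39A.

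Among the splicing genes, SF3A2, SF3B5, U2AF2, U2AF1L4 and LSM7 were higher and SRSF10 was lower, while after median-of-ratios scaling U2AF2 and LSM7 were lower too. SF3B5, a small subunit of SF3B in the U2 particle, lies on chromosome 6 from 144416018 to 144416754. It had 64.9, 82.9 and 87.0 FPKM with GFP and 168, 152 and 414 FPKM in PANX1 replicates 1, 2 and 3. The lowest PANX1 library was well above the highest GFP library, and the log2 ratio was 1.65 with all libraries and 1.03 without PANX1 replicate 3. Its limma change of 1.49 (standard error 0.37, adjusted p = 0.00235) had the smallest adjusted p of the 28 genes, and the adjusted p ran from 5.23e-05 to 0.151 over the alternatives. SF3A2, a subunit of SF3A on chromosome 19 from 2236816 to 2248678, had 12.3, 13.7 and 11.6 FPKM in GFP and 21.8, 16.8 and 57.8 FPKM in PANX1 cells. Its change of 1.09 (standard error 0.442, adjusted p = 0.0444 in limma) was the closest to the threshold among the genes called, with 0.00732 to 0.841 over the alternatives. The log2 ratio of SF3A2 was 1.36, and 0.62 without PANX1 replicate 3. Its limma change was 0.056 after a correction for GC content and 0.069 under median-of-ratios scaling.

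U2AF2, the subunit of U2AF that binds the polypyrimidine tract, had 26.1, 30.2 and 24.5 FPKM in GFP and 42.6, 30.7 and 85.9 FPKM in PANX1 cells. GFP replicate 2 and PANX1 replicate 2 were nearly level, and the adjusted p was 0.0714. U2AF1L4, a relative of the small subunit U2AF1, was the least abundant of the 28 genes, with 1.20, 1.05 and 1.37 FPKM in GFP and 1.53, 2.23 and 4.78 FPKM in PANX1 cells. LSM7, part of the ring that holds the end of U6 RNA and of a related ring in mRNA decay, had 23.7, 25.5 and 23.7 FPKM in GFP and 33.9, 36.8 and 79.6 FPKM in PANX1 cells, with an adjusted p of 0.0594. The groups did not overlap in these 3 genes. SRSF10, an SR protein that acts on splice site choice, lies on chromosome 1 from 24292937 to 24306953 and had 87.1, 87.6 and 73.0 FPKM in GFP and 63.8, 47.1 and 42.0 FPKM in PANX1 cells. All its PANX1 libraries were below all its GFP libraries. Here replicate 3 was less far from the others than in most genes, and the log2 ratio was -0.70 with it and -0.57 without it. The adjusted p in limma was 0.0902, and 0.0102 without PANX1 replicate 3 (0.00628 to 0.82 over the alternatives).

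CPSF1 and CPSF2, the subunits of the cleavage and polyadenylation complex among the 28 genes, had mean differences of opposite sign. CPSF1, the largest subunit and its scaffold, is listed together with MIR939 on chromosome 8 from 145597731 to 145634733. It had 2.67, 3.48 and 2.88 FPKM in GFP and 7.29, 5.80 and 20.4 FPKM in PANX1 cells, with no overlap. Its log2 ratio was 1.89, and 1.12 without PANX1 replicate 3, its limma change 1.41 (standard error 0.522, adjusted p = 0.0333, and 0.00332 to 0.224 over the alternatives), and it was higher after median-of-ratios scaling as well. CPSF2, a relative of the cutting subunit without activity of its own, on chromosome 14 from 92588298 to 92630543, had 28.1, 24 and 22.9 FPKM in GFP and 17.3, 16.7 and 12.9 FPKM in PANX1 cells. The PANX1 libraries were all lower and lay close together. The log2 ratio was -0.68, and -0.56 without PANX1 replicate 3, and the limma adjusted p 0.144 and 0.00938 in the same order, with 0.00938 to 0.838 over the alternatives. The difference between CPSF1 and CPSF2 was not tested.

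EXOSC4 and EXOSC5, subunits of the ring of the RNA exosome, were both higher, also after median-of-ratios scaling. EXOSC5, on chromosome 19 from 41892276 to 41903256, had 1.98, 3.66 and 4.85 FPKM in GFP and 7.20, 6.85 and 30.4 FPKM in PANX1 cells. The GFP libraries were spread over more than a doubling, and the PANX1 libraries were still all above them. Its log2 ratio was 2.08, and 1.01 without PANX1 replicate 3, and its limma change 1.54 (standard error 0.525, adjusted p = 0.0237, and 0.00854 to 0.262 over the alternatives). EXOSC4 had 3.94, 3.72 and 3.84 FPKM in GFP and 7.28, 5.41 and 23.9 FPKM in PANX1 cells, with an adjusted p of 0.0591.

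The DDX prefix marks DEAD-box helicases, which unwind or remodel RNA in many steps and are not all transcription or splicing factors. DDX39A, DDX49 and DDX54 had a higher mean and DDX3Y, which lies on the Y chromosome and whose levels are not given here, a lower one, and none had an adjusted p under 0.05. DDX39A, which acts in mRNA export and splicing, had 35.1, 40.0 and 35.1 FPKM in GFP and 47.3, 36.6 and 105 FPKM in PANX1 cells. PANX1 replicate 2 lay below GFP replicate 2, and the exact two-sided permutation test gave p = 0.2, while the other 27 genes had p = 0.1, the smallest that 3 libraries against 3 allow. DDX49 and DDX54 act in the nucleolus in ribosome assembly. DDX49 had 5.27, 5.62 and 4.88 FPKM in GFP and 9.99, 6.50 and 25.6 FPKM in PANX1 cells. DDX54 had a log2 ratio of 1.00, and 0.40 without PANX1 replicate 3. After median-of-ratios scaling DDX49 was the only higher gene of this family.

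A list of 238 other genes of transcription, splicing, and RNA 3′ end formation and decay was also looked up, and 17 of them were in the table. Mean FPKM was higher with PANX1 for all 17, as for 1108 of the 1273 genes of the table, the median log2 ratio being 1.28 beside 1.23 for the table, and 10 had an adjusted p under 0.05 in limma, 426 of the 1273 genes having passed in the table. Without PANX1 replicate 3 the median log2 ratio of the 17 was 0.68, beside 0.70 for the table. After median-of-ratios scaling it was 0.10, beside 0.043 for the table, and 10 of the 17 were higher, beside 699 of the 1273. None of the 10 calls was kept under that scaling or after a correction for GC content, where limma called 0 of the 17, with 3 and 7 higher at an unadjusted p under 0.05, beside 11.4% and 25.6% of the table. The count of 10, and with it the counts by list below, also depended on single libraries, being 0 without GFP replicate 1, 1 without GFP replicate 2 or 3, 3 without PANX1 replicate 1, 11 without PANX1 replicate 2 and 15 without PANX1 replicate 3. In 9 partners of initiation and elongation 4 passed the threshold, led by TCEB2, which encodes elongin B and had 11, 13.7 and 14.2 FPKM in GFP and 30.9, 26.1 and 161 FPKM in PANX1 cells. NELFB, of the factor that pauses RNA polymerase II, and DRAP1, a repressor of TATA-binding protein, had log2 ratios of 0.87 and 1.37, with adjusted p-values of 0.0948 and 0.039. Of 7 splicing partners 6 passed, and their most abundant genes were PQBP1, with a log2 ratio of 1.15, PUF60, with 1.28, and RBM10, with 1.02 and overlapping values. SYMPK, the scaffold symplekin of the cleavage complex, was the 1 gene of the 3′ end and decay list in the table, with 7.39, 7.99 and 8.21 FPKM in GFP and 12.9, 11.9 and 26.4 FPKM in PANX1 cells and an adjusted p of 0.0831.

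The higher and the lower genes differed in the GC content of their transcripts without overlap. The 23 higher genes ran from 55.5% to 66.5%, with a median of 60.5%, and the 5 lower genes from 35.7% to 39.3%, with a median of 38.7%. For comparison, the median was 61.7% for the higher and 39.1% for the lower genes of the table, and 49.1% over annotated protein-coding genes. The lower genes also had longer transcripts, with a median of 7656 bases against 2432 bases for the higher ones, as over the table, where the medians were 5949 and 2362 bases. With each library's slope on GC content removed, 24 of the 28 genes had a positive change in limma, SRSF10 having turned from -0.70 to 0.080, and 0 had an adjusted p under 0.05, with 6 higher and 0 lower at an unadjusted p under 0.05. Over all genes tested 71.1% had a positive change after this correction and 0.711% were called higher, and at an unadjusted p under 0.05 25.6% were higher and 6.01% lower. The median change was then 0.17 over the 28 genes and 0.19 over all genes tested. The largest changes among the 28 were 1.05 for SF3B5 and 1.03 for POLR2L, with adjusted p-values of 0.103 and 0.142. Since a real group difference tied to GC content is taken out by it as well, the part of GC content in the ratios was not tested beyond it. By position, 12 of the 28 genes (42.9%) lie on chromosome 19, against 18.0% of the table, and all 12 were among the higher genes, as were 227 of the 229 genes of the table on that chromosome.

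**Figure D3:**
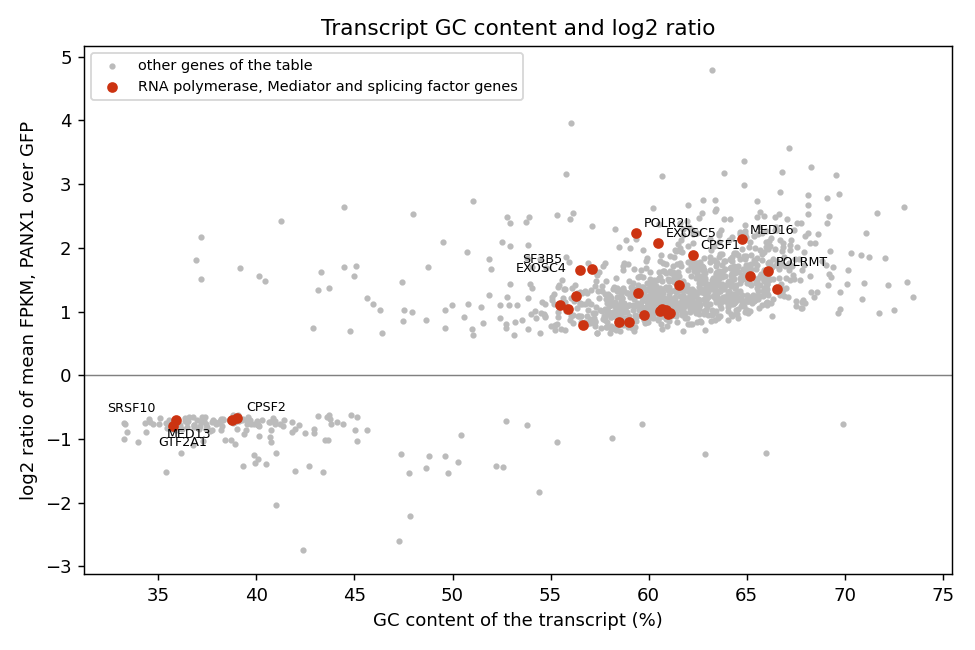
Log2 ratio of mean FPKM of PANX1 over GFP against the GC content of the longest protein-coding transcript, in percent. Red points are 27 of the 28 genes (DDX3Y is not drawn), gray points the other genes of the table outside the Y chromosome with a GC value and without a 0 in either group mean. The red points fall in 2 separate clouds, the higher genes above 55% and SRSF10, GTF2A1, MED13 and CPSF2 below 40% GC.

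Promoter sequences of RefSeq on GRCh38.p14 were found for 22 of the 28 genes, as windows of 250 bases before to 50 bases after the start. Their median GC content was 64.0%, against 67.3% for the genes of the table and 58.3% for all genes with such a window. The GC box GGGCGG, on either strand, was in the window of 16 of the 22 genes (72.7%), against 82.3% in the table and 48.3% of all genes. By direction, it was in 15 of the 18 higher genes and 1 of the 4 lower genes with a window. The ETS core CCGGAA was in 11 of the 22 (50%, against 34.1% and 20.1%), the CCAAT box, with the letters CCAAT, in 7 (31.8%, against 41.7% and 39.7%), the E-box CACGTG in 3 (13.6%, against 13.9% and 8.78%) and the TATA box TATAAA in 1 (4.55%, against 7.36% and 14.0%). Among the 18 higher and the 4 lower genes the ETS core was in 9 and 2 and the CCAAT box in 6 and 1. The E-box was in 2 and 1 and the TATA box in 1 and 0. No difference between the directions was tested, and shares by direction were not taken for the table. To show what these windows look like, the 150 bases before the start are printed for POLR2L and MED16, the genes with the largest log2 ratios with all libraries. They are also printed for CPSF2 and SRSF10, the lower genes outside the Y chromosome with a single window. GTF2A1 and MED13 had lower log2 ratios than these 2 genes, but GTF2A1 has 2 windows and MED13 does not have exactly 1. Capitals mark matches to any of these 5 motifs on either strand, and no 2 matches overlap. A match is a run of letters and not a shown binding site.
POLR2L, chr11:842530-842679, minus strand: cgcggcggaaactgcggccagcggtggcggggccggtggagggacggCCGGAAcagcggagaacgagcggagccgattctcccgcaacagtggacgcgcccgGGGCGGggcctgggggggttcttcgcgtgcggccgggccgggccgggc
MED16, chr19:893188-893337, minus strand: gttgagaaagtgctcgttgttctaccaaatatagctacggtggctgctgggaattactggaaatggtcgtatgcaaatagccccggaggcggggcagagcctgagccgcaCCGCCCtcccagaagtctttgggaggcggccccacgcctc
CPSF2, chr14:92121819-92121968, plus strand: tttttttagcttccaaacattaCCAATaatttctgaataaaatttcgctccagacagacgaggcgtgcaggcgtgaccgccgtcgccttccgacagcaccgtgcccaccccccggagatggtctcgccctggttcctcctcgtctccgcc
SRSF10, chr1:23980328-23980477, minus strand: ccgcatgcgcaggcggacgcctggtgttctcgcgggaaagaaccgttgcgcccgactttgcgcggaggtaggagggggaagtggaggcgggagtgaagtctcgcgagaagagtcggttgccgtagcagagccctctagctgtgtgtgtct
The POLR2L stretch holds a GC box and an ETS core and is 78.7% GC. The MED16 stretch holds a GC box, the CPSF2 stretch a CCAAT box, and the SRSF10 stretch none of the motifs at 64.0% GC, so that the low GC content of the SRSF10 transcript (35.9%) was not shared by its promoter.

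Some of these values may include reads of other genes. The pseudogene POLRMTP1 matches 97.2% of the POLRMT transcript at an identity of 95% or more, and POLR2J shares up to 40.3% of its transcript with other gene models, among them POLR2J4 with 37.7%, POLR2J2 with 37.2% and POLR2J3 with 22.1%. Exons of POLR2L overlap those of CD151 on the opposite strand over 22.8% of their bases, and CD151 was itself in the table with a log2 ratio of 1.62. U2AF1L4 and EXOSC4 share 24.8% and 56.7% of their exonic bases with overlapping gene models on the same strand. The sources used here do not say that strand was used in counting, so reads of such partners cannot be told apart, and their part in the values was not tested. SF3B5, SRSF10, MED13, GTF2A1, CPSF2 and EXOSC5 had no such exonic overlap with another protein-coding gene.

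**Figure D4:**
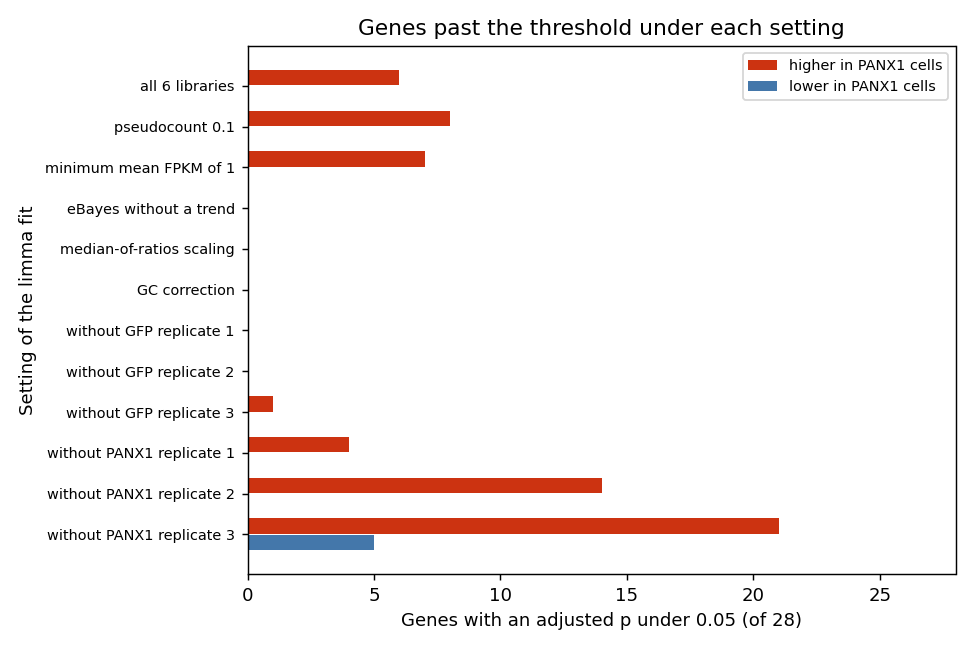
Number of the 28 genes with an adjusted p under 0.05 in limma under each setting of the fit without a block, with red bars for genes higher and blue bars for genes lower in PANX1 cells. The count of higher genes is 6 with all libraries, 21 without PANX1 replicate 3, and 0 without GFP replicate 1 or 2, under median-of-ratios scaling, after the GC correction and without a trend in eBayes. Fits with a replicate block are not drawn, and among the fits drawn lower genes appear without PANX1 replicate 3, where they number 5.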

How the data were processed

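The authors aligned reads from poly(A)-selected TruSeq libraries to hg19 with TopHat2 2.0.13 and Bowtie2 2.2.3 and deposited FPKM, calculated by Cufflinks 2.2.1, for 1273 genes of 6 libraries. The library normalization within Cufflinks is not given in the sources used here. Columns were assigned by the sample titles. Loci count from 0, and 1 was added to each start.

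Limma 3.58.1 in R 4.3.3 was fitted to log2(FPKM + 1) of the whole table without a block (eBayes with a trend, Benjamini-Hochberg adjustment over the table, threshold 0.05). That scale understates changes of low values, so log2 ratios of mean FPKM are given without a pseudocount. The fit was tested on simulated data with equal noise in every library, unlike the PANX1 libraries here. That test thus does not bear on how reliable the calls are. Transcript GC content came from the longest protein-coding transcript in GENCODE v44lift37, for 1265 genes of the table, and near-identical copies from blastn. The GC correction removed each library's linear slope of log2(FPKM + 1), centred per gene, on GC content relative to 49.1%.

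Values in every library are given for the most abundant gene and the gene with the largest absolute ratio under each prefix, for lower genes, and for some further genes chosen after their values were seen. The gene group, the list of other genes and the alternatives were chosen with earlier results of these data known. Summaries used Python 3.11.15 (pandas 2.3.3, scipy 1.17.1, numpy 2.4.6) and plots matplotlib 3.10.9.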

Additional observations from a re-analysis of the deposited data

How the results depend on the processing

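In limma 6 of the 28 genes were called higher and 0 lower, beside 426 and 9 of the 1273 genes of the table. With a pseudocount of 0.1 there were 8 higher (500 in the table), and with a minimum mean FPKM of 1 there were 7 (321 of 1161). The count was 0 without a trend in eBayes, as in the table (16 and 770 higher at an unadjusted p under 0.05), 0 under median-of-ratios scaling and 0 after the GC correction. With 1 library left out it ran from 0 (without GFP replicate 1 or 2) to 21 (without PANX1 replicate 3), and lower genes from 0 to 5. The median log2 ratio reversed from 1.04 to -0.15 under median-of-ratios scaling, and genes with all PANX1 values above GFP fell from 22 to 4, and in the table from 1044 to 210. Its size factors come from a table of mostly higher genes, which by construction centres the median near 0. With group medians in place of means the median log2 ratio was 0.70, and with 1 library left out 0.54 to 1.26.

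The study's methods speak of matching replicates without saying what they share, and titles and descriptions number the PANX1 libraries differently. For these reasons the title numbers were not taken to pair the libraries. Same-numbered libraries deviated from their group means with correlations across genes of 0.42, -0.36 and 0.14. Of the 3 GFP libraries 2, and of the 3 PANX1 libraries 1, correlated best with their own number. These correlations cannot decide whether the libraries were paired. Deviations cancel out within a group, and PANX1 replicate 3 had the extreme value in 1239 of the 1273 genes of the table. With the replicate block there were 12 higher genes and 0 lower (581 and 33 in the table), the 6 added being LSM7 (limma adjusted p = 0.0392), POLRMT (0.0427), POLR2E (0.0439), EXOSC4 (0.0446), U2AF2 (0.0494) and POLR2J (0.0497), and 2 and 0 together with the GC correction (61 and 6 of 1265). A block by the numbers in the sample descriptions gave 21 higher and 4 lower genes (1005 and 140 in the table). In it GFP replicate 1 and PANX1 replicate 3 have no partner and add nothing to the difference.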
